A study of Mus musculus with 39 samples.

Results

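The growth hormone axis and a set of liver genes switched on around puberty were followed through 10 genes, represented by 21 of the 45101 probe sets of an Affymetrix mouse GeneChip. A probe set was taken when its only gene symbol in the platform annotation was Ghr, Igf1, Igfals, Socs2, Cish, Elovl3, Hsd3b5, Cyp2d9, C6 or Nox4. All 10 genes passed the filter on low signal and were among the 12580 tested of 18193 genes with a probe set. The 39 arrays held whole liver RNA of male B6C3F1/Crl mice, the offspring of a C57BL/6 and a C3H/He parent, which were 29 to 32 days old on arrival and had 5 days to settle in. The treated groups drank water with 0.05% (w/v) phenobarbital, an activator of the nuclear receptor CAR, for 1, 7, 28 or 91 days, and the control groups are labelled Control for the same durations. Each treated group had 5 arrays, the day 1 controls had 4 and the other control groups had 5. Nothing in the labels says that arrays came from separate mice. The p-values therefore rest on the spread among these arrays, which may be technical, and the number of arrays limits the precision. The treatment note in the labels speaks of 28 days whereas the durations per sample, which were used here, run to 91, and the extraction note names kidney beside liver.

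Growth hormone reaches the liver cell through its receptor, GHR, which switches on the kinase JAK2 and the transcription factor STAT5. STAT5 drives Igf1 and Igfals, whose products circulate together, and also Socs2 and Cish, which feed back to shut the signal off. In rodents the pituitary of the adult male releases growth hormone in pulses, and in male mouse liver this pattern sets up the sex-biased programme that includes Elovl3, Hsd3b5, Cyp2d9 and C6 as the animal passes through puberty.

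The members of the hepatocyte marker list (Alb, Ttr, Apoa1, Tat, Cps1 and Cyp2e1) had a mean log2 signal of 14.28 to 14.47 on every array, and the 3 kidney markers had means of 4.57 to 5.96, with 1 of them below the lower quartile of the arrays in each group. Some arrays stood apart. Day 7 treated replicate 3 had a mean over 4 neutrophil markers of 10.20, and the median of its group was 5.45. Day 1 treated replicate 3 had a mean over 4 exocrine pancreas markers of 11.01, against a group median of 6.80. The spike-in controls of the day 7 control arrays had means of 9.58 to 10.27, below the 10.76 to 10.97 of the day 7 treated arrays. The title of day 28 control replicate 2 is numbered apart from all the others. Values are log2 signals as deposited, differences are on the same scale with a standard error (SE), and genes count as called where limma gave a p under 0.05 after Benjamini-Hochberg adjustment over all genes tested. Each SE rests on 1 spread per gene from all arrays. It therefore understates the scatter of groups with a large spread and overstates that of tight groups. This concerns Elovl3, Hsd3b5, C6 and Nox4, which were scattered in several groups of days 1 and 7.

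**Figure D1:**
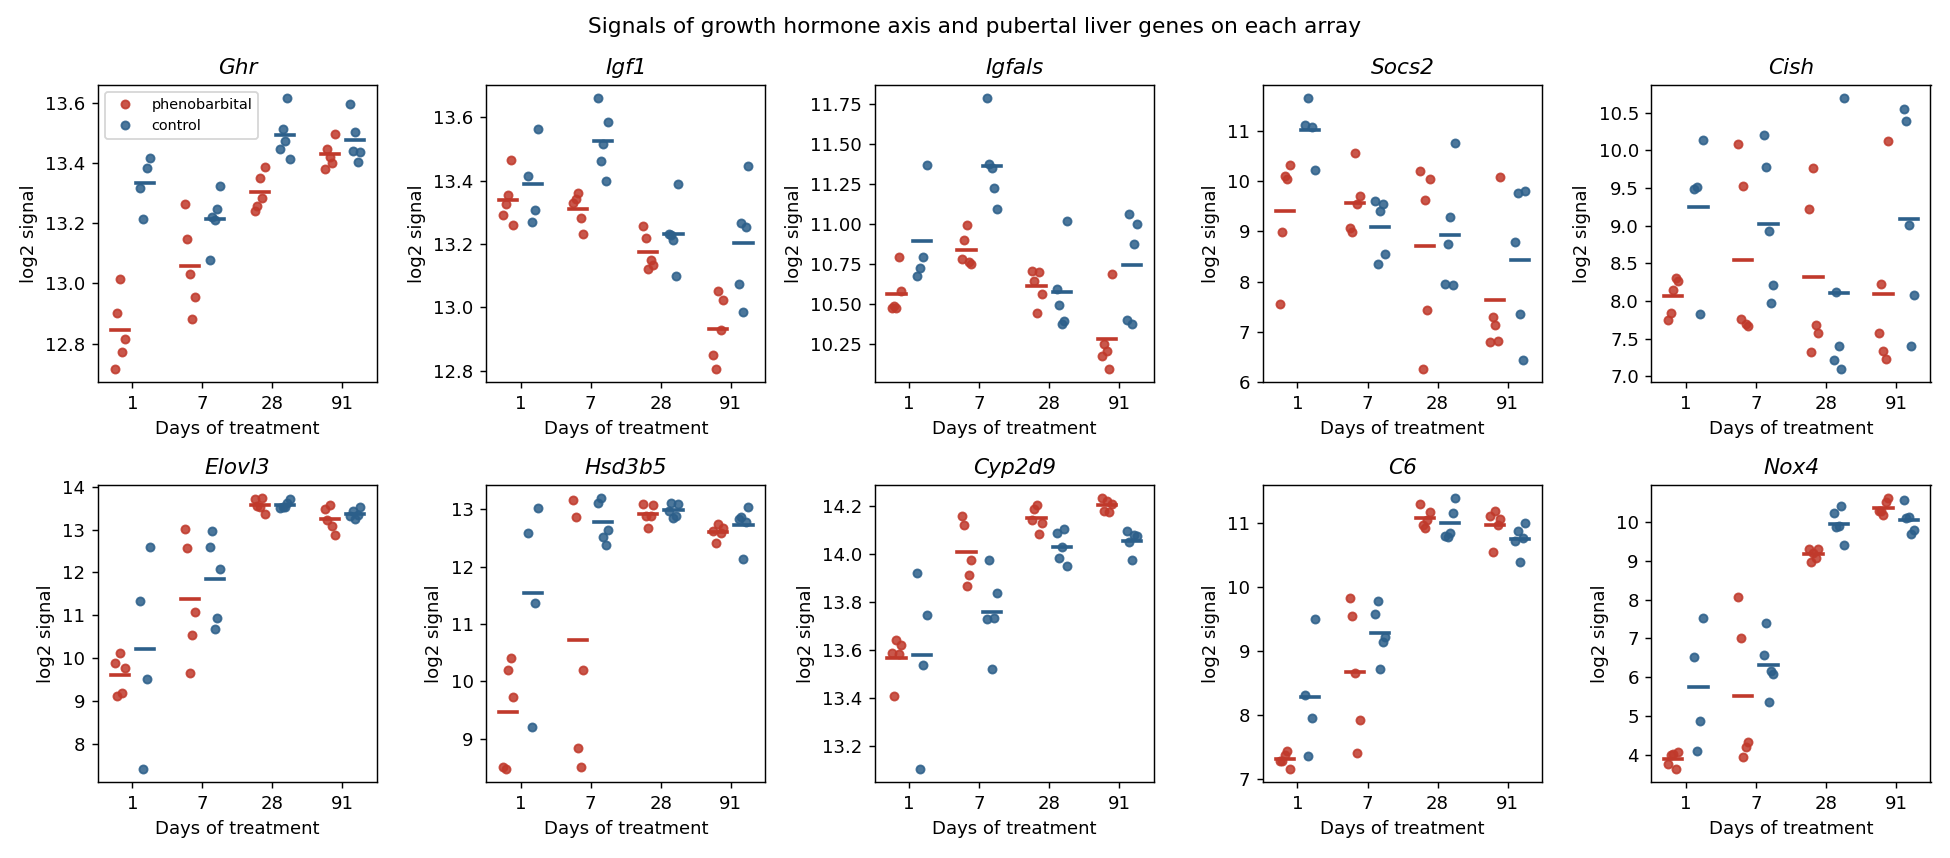
Log2 signal (vertical axis) of the 10 genes on each array against days of treatment, with treated arrays (red) left of control arrays (blue) and a bar at each group mean. In day 1 controls and day 7 treated livers Elovl3, Hsd3b5, C6 and Nox4 are scattered, and in day 7 controls Elovl3 and Nox4 are too. C6 and Nox4 are close together in day 1 treated livers, and Socs2 and Cish are scattered at all 4 durations.

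Most of the pubertal genes rose as the control livers matured, and Hsd3b5 was not called. Between day 1 and day 91 of the study 4 of the 10 genes rose in controls, Elovl3, Cyp2d9, C6 and Nox4, and Socs2 and Igf1 fell, where 36.2% of all genes were called, 19.7% higher and 16.6% lower. The median change of the 10 genes was 0.31, beside 0.039 over all genes tested. In treated livers 6 rose, the same 4 with Ghr and Hsd3b5, and Igf1 and Socs2 fell, where 49.1% of all genes were called (21.1% higher and 28.0% lower) and the median was 0.61 beside -0.043. By interval, Igfals, Elovl3 and C6 rose in controls between days 1 and 7 and Socs2 fell (35.2% of all genes were called), and between days 7 and 28 Ghr, Elovl3, Cyp2d9, C6 and Nox4 rose and Igf1 and Igfals fell (46.3%). When the mean of the spike-in controls entered as a covariate, which left C6 and Nox4 called between days 7 and 28, the values were 0.15 for Ghr (adjusted p = 0.401), -0.12 for Igf1 (0.589), -0.14 for Igfals (0.765), 2.31 for Elovl3 (0.172) and 0.26 for Cyp2d9 (0.347). Between days 28 and 91 limma called 0 of the 10, with 0 at an unadjusted p under 0.05, where 13.6% of all genes were called. In whole tissue, fewer cells of a type and less RNA per cell cannot be told apart.

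Nox4 encodes an NADPH oxidase that makes hydrogen peroxide. In controls its signals at day 91 were 10.57, 10.10, 10.13, 9.69 and 9.79, against 6.53, 4.09, 4.88 and 7.54 at day 1. The groups did not overlap, and the difference was 4.30 (SE 0.57, adjusted p = 3.54e-07 in limma), a 19.7-fold rise, with 1 of the 4 day 1 arrays (4.09) under the lower quartile of its array. The lower quartiles of the arrays lay between 4.37 and 4.48, and a signal under them was read as near background because the values come with no detection calls. In treated livers the signals at day 91 were 10.29, 10.28, 10.17, 10.51 and 10.61, against 3.77, 3.99, 4.03, 3.64 and 4.07 at day 1. All 5 day 1 treated arrays lay under the lower quartile, so the measured rise of 6.47 (SE 0.54, adjusted p = 3.35e-12) gives only a bound. Taken against the lower quartile, Nox4 was at least 62.3-fold higher at day 91. Most of the control rise fell between days 7 and 28, where it was 3.65 (SE 0.54, adjusted p = 2.38e-06), while day 7 minus day 1 was 0.56 (adjusted p = 0.459). These values are of 1451827_a_at. On the second set, 1419161_a_at, the control means were 8.31 at day 91 and 4.98 at day 1, a smaller rise, also without overlap.

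C6 encodes a component of the membrane attack complex of complement. Control signals were 10.72, 10.88, 10.39, 10.77 and 11.00 at day 91, against 8.32, 7.36, 7.95 and 9.50 at day 1. The change was 2.47 (SE 0.33, adjusted p = 3.54e-07), a 5.54-fold rise with no overlap, and it was spread over day 7 minus day 1 (1.01, adjusted p = 0.0167) and day 28 minus day 7 (1.71, adjusted p = 3.64e-05). The first of these missed the threshold without day 1 control replicate 2 (0.70, adjusted p = 0.118) or 3 (0.90, 0.0592). In treated livers C6 rose by 3.68 (SE 0.31, adjusted p = 4.31e-12). Of the 5 other tested genes of the terminal complement pathway, C8g (0.31) and C9 (0.52) rose in controls between days 1 and 91 and C8b fell by 0.46, so C6 had the larger change.

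Elovl3 encodes an elongase of very long chain fatty acids with male-biased expression in mouse liver. Its day 91 control signals were 13.31, 13.43, 13.25, 13.34 and 13.52, against 11.34, 7.43, 9.52 and 12.59 at day 1, so every day 91 array lay above every day 1 array. The change was 3.15 (SE 0.60, adjusted p = 9.62e-05), or 8.90-fold. The day 7 controls exceeded the day 1 controls by 1.63 (adjusted p = 0.0329), a call that ended without day 1 replicate 2 (0.70, adjusted p = 0.332) or 3 (1.40, 0.107), or without day 7 replicate 1 (1.45, 0.087), 2 (1.35, 0.0982) or 5 (1.57, 0.0517). Day 28 control arrays lay between 13.51 and 13.72, and day 91 minus day 28 was -0.21 (SE 0.57, adjusted p = 0.848), with an adjusted p of 0.0451 when only those arrays were fitted. In treated livers the rise was 3.63 (SE 0.57, adjusted p = 1.96e-06).

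Hsd3b5 encodes a male-specific ketosteroid reductase of mouse liver. In treated livers it averaged 12.61 ± 0.12 at day 91, against 9.46 ± 0.92 at day 1 (SD, n = 5 each), a rise of 3.15 (SE 0.61, adjusted p = 5.12e-05). In controls it averaged 12.73 ± 0.35 at day 91 (SD, n = 5), against 11.54 ± 1.71 at day 1 (SD, n = 4), and the difference of 1.19 (SE 0.64) missed the threshold, with an adjusted p of 0.148. The 4 day 1 control arrays were 12.58, 9.20, 11.37 and 13.02, so 2 of them lay within the day 91 range of 12.14 to 13.04.

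Cyp2d9 encodes a testosterone hydroxylase found mainly in male mouse liver. It changed little in size but with small spread: controls averaged 14.06 ± 0.05 at day 91 (SD, n = 5), against 13.58 ± 0.35 at day 1 (SD, n = 4), a rise of 0.48 (SE 0.09, adjusted p = 8.95e-05). Treated livers averaged 14.21 ± 0.03 at day 91, against 13.57 ± 0.09 at day 1 (SD, n = 5 each), a rise of 0.64 (SE 0.09, adjusted p = 1.25e-07). Its relatives Cyp2d10 (0.35), Cyp2d13 (0.90) and Cyp2d22 (0.58), which encode enzymes of the same family, rose in controls too. Probe sets of near-identical Cyp2d genes can share transcripts, so a signal may hold RNA of more than 1 of them.

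**Figure D2:**
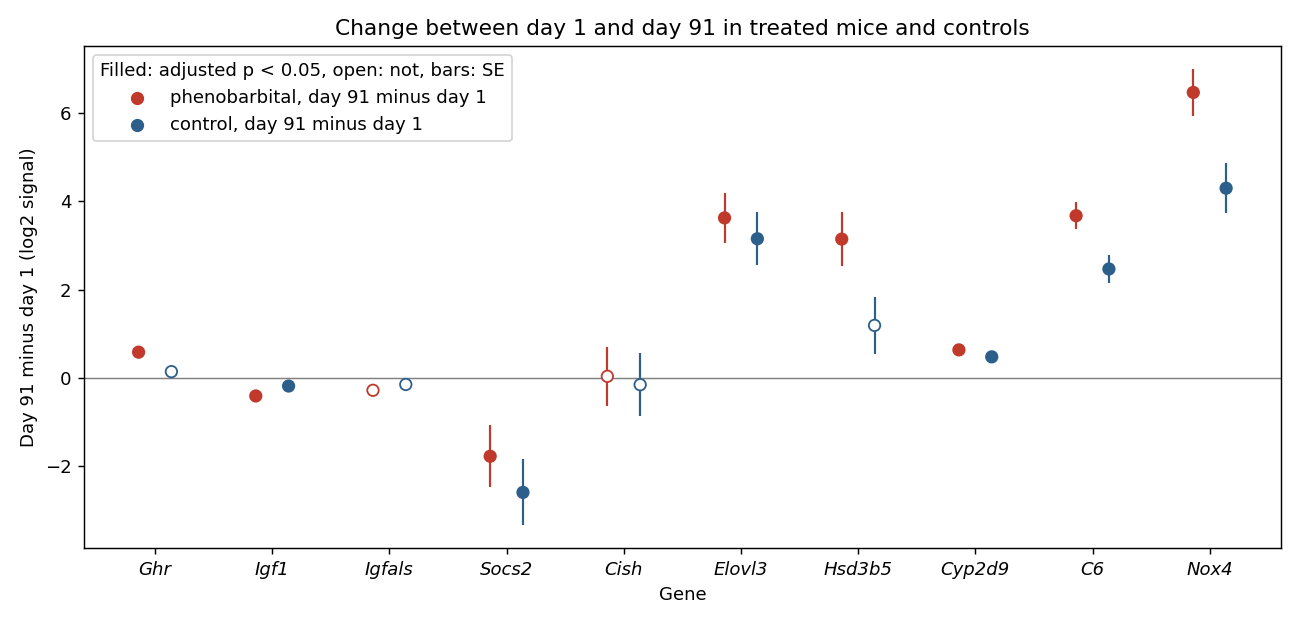
Difference in log2 signal between day 91 and day 1 (vertical axis) for the 10 genes in treated livers (red, left) and controls (blue, right), with bars for the SE and filled points for an adjusted p under 0.05. Nox4, C6 and Elovl3 have the highest values in both groups of livers, and Hsd3b5 is filled in treated livers, at 3.15, and open in controls, at 1.19.

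Within the growth hormone axis, Igf1 and Socs2 fell in controls with age and Ghr, Igfals and Cish were not called, each on its probe set with the highest mean. Ghr, the receptor, was 13.59, 13.44, 13.50, 13.40 and 13.44 in day 91 controls, against 13.32, 13.22, 13.38 and 13.42 at day 1. The ranges overlapped and the difference was 0.14 (SE 0.06, adjusted p = 0.068), whereas day 28 minus day 7 was 0.28 (SE 0.06, adjusted p = 0.000244) with no overlap. In treated livers Ghr rose by 0.58 (SE 0.06, adjusted p = 2.47e-10) between days 1 and 91. These Ghr values are of 1417962_s_at. In controls 1451501_a_at averaged 12.77 at day 91 and 12.40 at day 1 without overlap. For 1451871_a_at the control means were 8.76 and 8.62, with overlap. Igf1, the growth factor made in the liver under growth hormone, was 13.07, 13.27, 12.99, 13.25 and 13.45 in day 91 controls, against 13.41, 13.27, 13.31 and 13.56 at day 1, a fall of 0.18 (SE 0.07, adjusted p = 0.0382) with overlapping arrays. Igf1 missed the threshold when day 1 control replicate 1 (-0.18, adjusted p = 0.0778) or 4 (-0.13, 0.184) was left out, or day 91 control replicate 1 (-0.15, 0.101) or 3 (-0.13, 0.142). These values are of 1452014_a_at, and the other Igf1 sets fell in controls without overlap. Their means at day 1 and day 91 were 13.32 and 12.68 (1434413_at), 13.28 and 12.46 (1437401_at) and 11.91 and 11.43 (1419519_at). In treated livers Igf1 fell by 0.41 on 1452014_a_at (SE 0.07, adjusted p = 3.56e-06) with no overlap between days. The treated means of the other sets, in the same order, were 12.79 and 12.57, 12.67 and 12.43, and 11.53 and 11.25, with overlapping arrays. Whether treated livers or controls had the larger fall thus depended on the probe set.

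Igfals, the acid-labile subunit that holds IGF1 in its circulating complex, was highest at day 7 in controls. Its control signals were 11.78, 11.38, 11.35, 11.22 and 11.09 at day 7, against 10.68, 10.73, 10.80 and 11.37 at day 1. The rise of 0.47 (SE 0.15, adjusted p = 0.0139) was followed by a fall of 0.79 between days 7 and 28 (SE 0.14, adjusted p = 3.14e-05), and day 91 minus day 1 was -0.15 (adjusted p = 0.458). The rise to day 7 lost its call without day 1 control replicate 1 (0.40, adjusted p = 0.0565) or 2 (0.42, 0.0549), or without day 7 control replicate 1 (0.37, 0.0644). When the mean of the spike-in controls entered as a covariate it was -0.039 (adjusted p = 0.952) and the fall to day 28 was -0.14 (adjusted p = 0.765).

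Socs2, a feedback inhibitor of the receptor, had control signals of 8.79, 9.76, 7.35, 6.44 and 9.80 at day 91, against 11.12, 11.65, 11.09 and 10.23 at day 1. Every day 91 array lay below every day 1 array, and Socs2 fell by 2.59 (SE 0.75, adjusted p = 0.0067). By day 7 it fell by 1.93 (adjusted p = 0.043), and that call ended without day 1 replicate 1, 2 or 3 or day 7 replicate 1, 2, 3 or 5, with values of -2.05 to -1.72. In treated livers Socs2 fell by 1.78 (SE 0.71, adjusted p = 0.0357) with overlapping arrays, and leaving out day 1 treated replicate 3, 4 or 5 or day 91 treated replicate 1, 2, 3 or 4 ended that call, with values of -1.69 to -1.55 and adjusted p-values of 0.064 to 0.0901. Cish, the other feedback inhibitor, ranged from 7.40 to 10.54 in day 91 controls and from 7.83 to 10.13 in day 1 controls, and the difference was -0.15 (SE 0.71, adjusted p = 0.889). The SD of Cish was between 0.97 and 1.497 in the 4 control groups, against a median SD of 0.12 to 0.14 over all genes tested in those groups.

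Among 15 tested genes of growth hormone and insulin signalling outside the members, 2 rose and 3 fell in controls between days 1 and 91, close to the 19.7% and 16.6% of all genes. Those that fell were Sirpa (-1.06), a membrane protein that recruits phosphatases, Irs2 (-1.42), an insulin receptor substrate, and Grb10 (-1.57), an adaptor that restrains insulin and IGF receptors, and Sh2b1 (0.32), an adaptor that binds JAK2, was among those that rose. Of 11 carriers and receptors of IGFs 1 rose and 5 fell, among them Igfbp1 (-3.00, SE 0.50), Igfbp3 (-1.69, SE 0.15), Igfbp7 (-0.54) and Igf2r (-0.49), with a median of -0.15 beside 0.039 over all genes.

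Stretches of promoter that carry the letters of the STAT5 core site are shown because STAT5 is known to act on several of these genes. The core TTCNNNGAA, which reads the same on both strands, was sought in RefSeq promoter windows (build GRCm38.p6) reaching from 250 bases before to 50 after each annotated start. Of the 10 genes 8 had a window, with 11 windows in all, and 4 windows of 3 genes held a match, whereas 8.3% of the 32851 windows of all genes did. Capitals mark the match, and each stretch is on the plus strand.
Cish, chr9:107296654-107296683, matches starting at bases 1 and 12 of the transcript: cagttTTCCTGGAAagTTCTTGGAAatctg
Igfals, chr17:24877598-24877627, match starting at base -236: gatctataatTTCTCAGAAaagaggctgag
Igfals, chr17:24878163-24878192, match starting at base -58 of another annotated start: ctgccaggtgTTCCTAGAAgaggccctggg
Nox4, chr7:87246417-87246446, match starting at base -222: tgcacaaccaTTCTAGGAAgtagggtgtat
The Cish stretch holds a pair of matches 2 bases apart, and the other stretches hold 1 each. The windows of Ghr, Igf1, Hsd3b5, Cyp2d9 and C6 held these letters nowhere, which says nothing of sites outside the windows. A match is a run of letters and was not tested for binding.

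At day 1 of phenobarbital the receptor and 3 of the pubertal genes fell. Ghr, Hsd3b5, C6 and Nox4 were called lower and 0 of the 10 genes higher, where 32.5% of all genes were called, 15.8% higher and 16.7% lower. All 10 differences were below 0, with a median of -0.79 beside 0.0063 over all genes tested. The share of all genes below 0 was not counted. Leaving out a single array turned the sign for Elovl3 (up to 0.19), Igf1 (0.0096) and Cyp2d9 (up to 0.11). The 10 genes share arrays and were chosen with earlier results of these data known.

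Ghr had 12.72, 12.90, 13.02, 12.77 and 12.82 on the treated arrays, against 13.32, 13.22, 13.38 and 13.42 on the control arrays. The groups did not overlap, and the fall was 0.49 (SE 0.06, adjusted p = 3.99e-07), 1.40-fold. The call held with each array left out in turn and under 12 of the 13 other settings tried. Under the remaining setting, which leaves out probe sets that may match several transcripts, Ghr had no probe set and no value. Hsd3b5 had 8.50, 8.48, 10.19, 10.40 and 9.73 on the treated arrays, against 12.58, 9.20, 11.37 and 13.02 on the controls, with control replicate 2 inside the treated range. The fall was 2.08 (SE 0.64, adjusted p = 0.0122), 4.24-fold. The SDs were 0.92 in treated livers and 1.71 in controls, against 0.12 to 0.35 in the groups of days 28 and 91. That SE thus understates the scatter of day 1.

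C6 had 7.28, 7.28, 7.37, 7.43 and 7.16 on the treated arrays, against 8.32, 7.36, 7.95 and 9.50 on the controls, a fall of 0.98 (SE 0.33, adjusted p = 0.02) with 1 overlapping control. For Nox4, given above, the measured fall was 1.86 (SE 0.57, adjusted p = 0.0115). All 5 treated arrays and control replicate 2 lay under the lower quartile of the arrays and so have no order among themselves, and against that quartile Nox4 was at least 2.54-fold lower in treated livers. These 3 falls rested on day 1 control replicate 4, which was the highest of its group for Elovl3, Hsd3b5, C6 and Nox4. Without it the differences were -1.59 for Hsd3b5 (adjusted p = 0.0746), -0.57 for C6 (0.172) and -1.26 for Nox4 (0.0947), which left Ghr as the only gene called lower. Without control replicate 1, Hsd3b5 was -1.74 (adjusted p = 0.0565).

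Elovl3 had 9.89, 9.11, 10.13, 9.18 and 9.78 on the treated arrays, against 11.34, 7.43, 9.52 and 12.59 on the controls, whose range enclosed all treated arrays. The difference was -0.60 (SE 0.60, adjusted p = 0.466). Without control replicate 2, the lowest, it was -1.53 (adjusted p = 0.0274). Cyp2d9 differed by -0.0090 (SE 0.09, adjusted p = 0.951, 95% confidence interval -0.19 to 0.17).

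Of the targets of the receptor, Socs2 had 7.55, 8.98, 10.10, 10.05 and 10.32 on treated arrays, against 11.12, 11.65, 11.09 and 10.23 on controls (-1.62, SE 0.75, adjusted p = 0.0941). Cish had 7.75, 7.84, 8.14, 8.31 and 8.26, against 9.49, 9.51, 7.83 and 10.13 on controls (-1.18, SE 0.71, adjusted p = 0.203). For both genes 1 control array lay within the treated range, and when only the day 1 arrays were fitted both passed the threshold (adjusted p = 0.0331 for Socs2 and 0.0295 for Cish). Igfals differed by -0.33 (SE 0.15, adjusted p = 0.0858).

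Igf1 depended on the probe set. The set with the highest signal, 1452014_a_at, differed by -0.048 (SE 0.07, adjusted p = 0.627). In a fit of all probe sets, in which 26.2% were called at day 1, the other 3 sets fell: 1434413_at by 0.53 (SE 0.09, adjusted p = 3.06e-05), 1437401_at by 0.61 (SE 0.10, adjusted p = 4.2e-05) and 1419519_at by 0.37 (SE 0.10, adjusted p = 0.00728). The mean of the 4 sets fell by 0.39 (SE 0.07, adjusted p = 0.000132). All 3 probe sets of Ghr fell, by 0.49, 0.38 and 0.59, and so did the second set of Nox4, by 0.89 (SE 0.31, adjusted p = 0.0282). The annotation does not say which transcript forms each set detects.

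**Figure D3:**
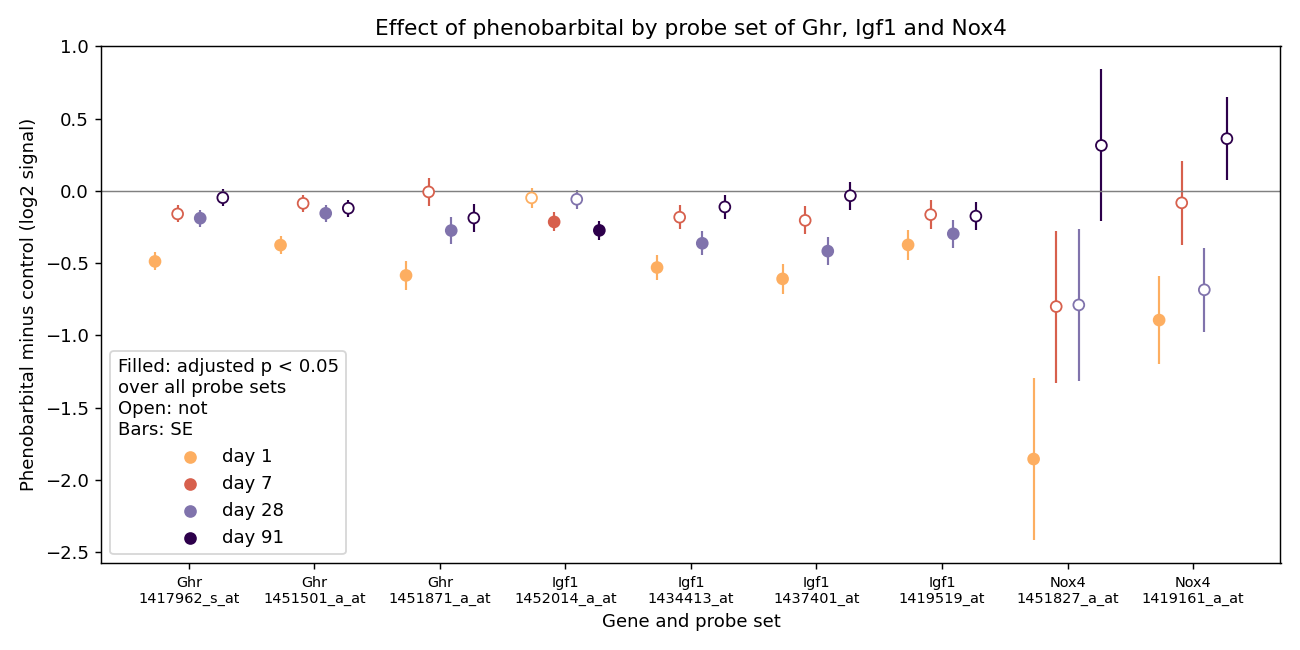
Phenobarbital minus control in log2 signal (vertical axis) for each probe set of Ghr, Igf1 and Nox4 at the 4 durations, with bars for the SE and filled points for an adjusted p under 0.05 over all probe sets. At day 1 the 3 sets of Ghr and 3 of the 4 sets of Igf1 are filled below 0, and 1452014_a_at lies at -0.048.

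Markers of dividing cells moved with these day 1 results. The mean over Mki67, Top2a and Cdk1 was 9.59 to 10.13 on the treated arrays, above the 7.24 to 8.996 of the controls, and the lowest control, at 7.24, was replicate 4. Their part in the falls was not tested. Among 13 tested male-biased liver genes outside the members 5 fell at day 1 and 0 rose (16.7% of all genes were lower), including Hsd3b2 (-1.49, SE 0.16, adjusted p = 1.59e-08), Cyp7b1 (-0.93), an oxysterol hydroxylase, and Slco1a1 (-1.22), an organic anion transporter. Among 17 tested female-biased genes 6 rose and 1 fell, including Prom1 (2.55), Cyp3a44 (1.35), Sult3a1 (3.57) and Cyp2b13 (2.14). Some of these are also known to respond to CAR. In the same comparison C8a (-0.47), C9 (-0.76) and Hc (-0.21), whose product is complement C5, fell beside C6. Within the signalling list Jak2 fell by 0.28 (SE 0.07, adjusted p = 0.00259) and Irs2 by 0.88, while Irs1 rose by 0.58 and Shc1 by 0.49. Insr fell by 0.45 and Igf2r by 0.50, while Igfbp5 rose by 0.65 and Igf2 by 0.29.

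**Figure D4:**
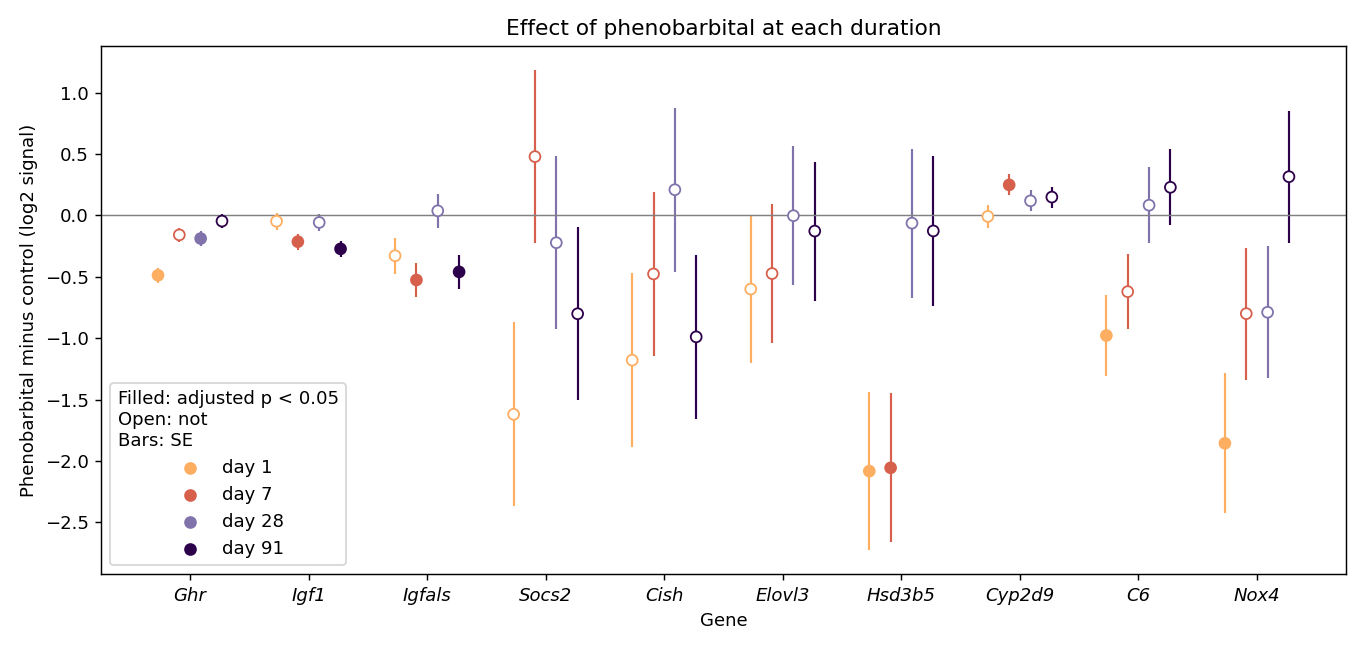
Phenobarbital minus control in log2 signal (vertical axis) for the 10 genes at days 1, 7, 28 and 91, with bars for the SE and filled points for an adjusted p under 0.05. Hsd3b5 lies near -2.08 at day 1 and -2.06 at day 7 and near 0 at the later durations, and Ghr is filled at days 1 and 28.

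At day 7 Igf1, Igfals and Hsd3b5 were called lower and Cyp2d9 higher, where 17.0% of all genes were called, 11.4% lower and 5.64% higher. The median over the 10 genes was -0.48 beside -0.048 over all genes. Igfals had 10.78, 10.90, 10.99, 10.76 and 10.75 on the treated arrays, against 11.78, 11.38, 11.35, 11.22 and 11.09 on the controls. No arrays overlapped, and the fall was 0.53 (SE 0.14, adjusted p = 0.00846), 1.44-fold. Igf1 had 13.33, 13.34, 13.36, 13.28 and 13.23 on the treated arrays, against 13.66, 13.46, 13.51, 13.40 and 13.58 on the controls, a fall of 0.21 (SE 0.07, adjusted p = 0.0221) without overlap. The Igf1 call was lost without control replicate 1 (-0.18, adjusted p = 0.077), control replicate 5 (-0.20, 0.0503) or treated replicate 5 (-0.20, 0.0596).

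Hsd3b5 had 13.16, 12.87, 8.84, 8.51 and 10.19 on the treated arrays of day 7, against 13.12, 13.19, 12.52, 12.38 and 12.64 on the controls. Treated replicates 1 and 2 lay at the control level and the other 3 lay 2 units or more below every control array. The difference was -2.06 (SE 0.61, adjusted p = 0.0172), and it missed the threshold without treated replicate 3 (-1.59, adjusted p = 0.0678) or 4 (-1.51, adjusted p = 0.088). The SDs were 2.19 in treated livers and 0.36 in controls, so that SE understates the scatter of the treated arrays. Cyp2d9 went the other way, with 14.16, 14.12, 13.87, 13.91 and 13.98 on the treated arrays, against 13.73, 13.98, 13.52, 13.73 and 13.84 on the controls, and with overlapping arrays. The rise was 0.25 (SE 0.09, adjusted p = 0.0405), and leaving out any of 6 of the 10 arrays, control replicates 1, 3 and 4 and treated replicates 1, 2 and 5, ended the call, with differences of 0.19 to 0.26 and adjusted p-values of 0.0573 to 0.147.

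When the mean of the spike-in controls entered as a covariate, none of these 4 day 7 calls held. The differences were then -0.065 for Igfals (adjusted p = 0.859), -0.093 for Igf1 (0.579), -2.00 for Hsd3b5 (0.167) and 0.24 for Cyp2d9 (0.249), and the part of the spike-in difference in the results cannot be told apart from that of treatment. The related enzymes Cyp2d10 (0.34, SE 0.03, adjusted p = 3.05e-09) and Cyp2d22 (0.36) rose at day 7, Hsd3b3 fell by 0.38 and Hsd3b2 by 0.64. Of 11 IGF carriers and receptors Igfbp2 (-0.80) and Igfbp5 (-0.996) fell. Of the 15 signalling genes 0 were called by limma, with 3 at an unadjusted p under 0.05, and Irs1 had the smallest p of that list (0.27, adjusted p = 0.0909).

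Elovl3, C6 and Nox4 were not called at day 7. Elovl3 had 13.02, 12.56, 9.67, 10.54 and 11.08 on the treated arrays, against 12.59, 12.96, 10.69, 10.93 and 12.07 on the controls, with overlapping ranges. Nox4 had 8.07, 7.01, 3.95, 4.20 and 4.32 on the treated arrays, against 6.58, 7.41, 5.35, 6.15 and 6.08 on the controls (-0.80, SE 0.54, adjusted p = 0.32), with 3 treated arrays under the lower quartile. C6 had 9.83, 9.54, 8.66, 7.40 and 7.91, against 9.58, 9.79, 8.72, 9.14 and 9.22 on the controls (-0.62, SE 0.31, adjusted p = 0.165). Treated replicates 1 and 2 were the highest of their group for all 5 of Elovl3, Hsd3b5, Cyp2d9, C6 and Nox4. Without treated replicate 1 the differences were -1.44 for Nox4 (adjusted p = 0.0359) and -0.91 for C6 (0.0328), Ghr was lower by 0.21 (0.0105), and 6 genes were called lower in place of 3. Ghr with all arrays differed by -0.16 (SE 0.06, adjusted p = 0.0548).

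In day 1 controls and in the treated and control livers of day 7 the spread of these genes was far above that of most genes, and least so in day 7 controls. In day 1 controls Elovl3 had an SD of 2.25, Hsd3b5 of 1.71, Nox4 of 1.56 and C6 of 0.90, against a median of 0.12 over the genes tested, and 99.5% of tested genes had a smaller SD than C6 and 99.9% or more a smaller one than each of the other 3. In day 7 treated livers the SDs were 1.40, 2.19, 1.90 and 1.04 in the same order, again with a median of 0.12 over all genes. Day 7 controls had SDs of 1.00, 0.36, 0.75 and 0.41 in that order, against a median of 0.13. Each was larger than that of 96.2% or more of tested genes. In day 1 treated livers Hsd3b5 (0.92) and Elovl3 (0.45) were spread too, whereas C6 had an SD of 0.10, larger than that of 37.4% of tested genes, and Nox4 of 0.18 near background. In day 91 controls the SDs were 0.11 for Elovl3, 0.35 for Hsd3b5, 0.35 for Nox4 and 0.23 for C6. Those of Hsd3b5 and Nox4 were still larger than that of 95.9% of tested genes, that of C6 than 82.9% and that of Elovl3 than 28.6%.

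The deviations ran together across genes. Over the 19 arrays of days 1 and 7, taken as deviations from the group means, Pearson's r was 0.90 for Elovl3 with Nox4, 0.90 for C6 with Nox4, 0.87 for Hsd3b5 with Nox4 and 0.87 for Elovl3 with Cyp2d9. Genes of 1 array share its RNA, hybridization and scaling, and these values describe the arrays without a test. Socs2 ran the other way, with r of -0.51 against Elovl3, and Ghr had r of 0.46 to 0.63 with Elovl3, Hsd3b5, C6 and Nox4. Igf1 and Igfals had r of 0.71 with each other, and Socs2 and Cish had 0.09. Over the 20 arrays of days 28 and 91 most of these values differed. There r was -0.44 for Elovl3 with Nox4, -0.20 for C6 with Nox4, -0.15 for Hsd3b5 with Nox4 and 0.04 for Elovl3 with Cyp2d9. Hsd3b5 with C6 had 0.70, Igf1 with Igfals 0.78 and Socs2 with Cish 0.72.

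In day 7 treated livers the markers of dividing cells were lower on the arrays that were high for the pubertal genes, and in day 1 controls only replicate 4 showed this. The mean of those markers on the day 7 treated arrays was 6.43 and 6.75 on replicates 1 and 2, and 8.19, 8.28 and 7.39 on the other 3. On the day 1 control arrays it was 8.77, 8.76, 8.996 and 7.24, the last on replicate 4. Replicates 1 and 2 had nearly equal means, although for Elovl3, Hsd3b5, C6 and Nox4 replicate 1 was next to the highest and replicate 2 the lowest. In day 7 controls the mean ran from 6.67 to 8.46. It was highest on replicate 5, which ranked 3 from the lowest for Elovl3, Hsd3b5 and C6 and 2 for Nox4. In day 1 treated livers replicate 4, the highest of its group for Hsd3b5 and C6, had a mean of 10.10 in a range of 9.59 to 10.13. Day 7 treated replicate 3, which was low for Hsd3b5 and Nox4, was also the array with high neutrophil markers and had a mean of 10.17 over 5 Kupffer cell markers, whereas replicates 4 and 5 were low for those genes with neutrophil means of 5.40 and 5.55.

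**Figure D5:**
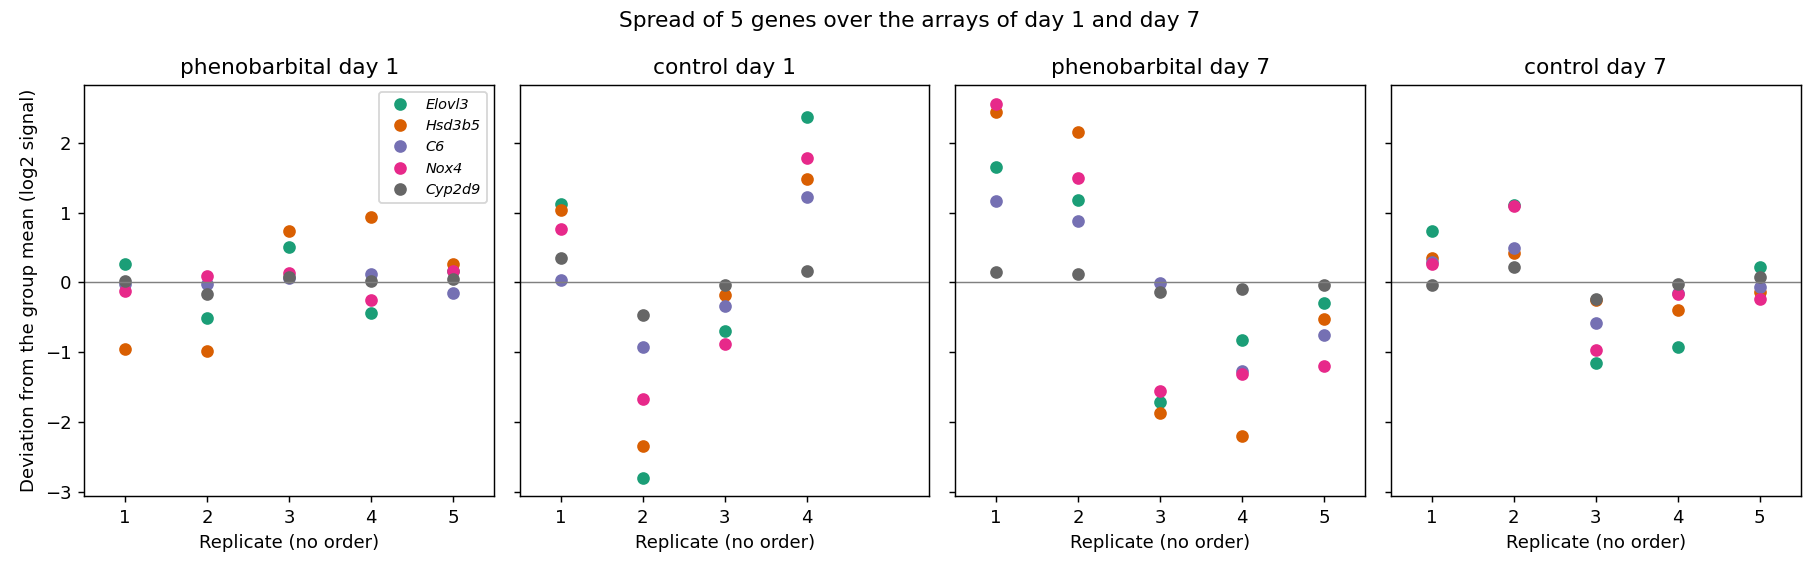
Deviation from the group mean in log2 signal (vertical axis) of Elovl3, Hsd3b5, C6, Nox4 and Cyp2d9 on each array of days 1 and 7, by replicate (horizontal axis, numbers without order). Day 1 control replicate 4 lies above its group mean for all 5 genes and replicate 2 below it, and in day 7 treated livers replicates 1 and 2 lie above it for all 5.

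At day 28 Ghr was the only gene of the 10 called, and it was lower, where 29.2% of all genes were called and 18.1% were lower. Its signals were 13.24, 13.26, 13.35, 13.28 and 13.39 on the treated arrays, against 13.45, 13.51, 13.47, 13.61 and 13.41 on the controls. All treated arrays lay below all controls, and the fall was 0.19 (SE 0.06, adjusted p = 0.0139), 1.14-fold. Without control replicate 4 it was -0.16 (adjusted p = 0.0559), and with the spike-in signal or the 3' minus 5' difference of control transcripts as a covariate the adjusted p was 0.075 or 0.341. The other 2 Ghr probe sets fell as well, by 0.16 and 0.27. In the fit of all probe sets, in which 25.1% were called, 3 sets of Igf1 fell, 1434413_at by 0.36, 1437401_at by 0.42 and 1419519_at by 0.30, while 1452014_a_at differed by -0.058 (adjusted p = 0.534). Nox4 had 9.31, 8.96, 9.20, 9.08 and 9.30 on the treated arrays, against 10.22, 9.87, 9.89, 10.42 and 9.39 on the controls. The arrays did not overlap and the difference was -0.79, but the SE from all 39 arrays, 0.54, includes the scattered early groups, and the adjusted p was 0.272. In a fit of the day 28 arrays alone it was 0.00397. On the second Nox4 set, 1419161_a_at, the arrays overlapped, with 7.35 to 7.79 in treated livers and 7.49 to 8.59 in controls.

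Hsd3b5, Elovl3 and C6 were not called at day 28. The difference was -0.064 for Hsd3b5 (95% confidence interval -1.30 to 1.17), -0.0032 for Elovl3 (-1.15 to 1.14) and 0.082 for C6 (-0.54 to 0.71). The intervals of Hsd3b5 and Elovl3 are wide because they use the spread of all arrays, the scattered early groups included. Within day 28 the SDs were 0.12 in controls and 0.17 in treated livers for Hsd3b5, and 0.09 and 0.15 for Elovl3. Jak2 (-0.27), Irs2 (-1.15) and Ptpn11 (-0.19), a phosphatase, fell at day 28 and Shc1 rose by 0.33. Of 13 male-biased genes 0 rose and 1 fell, Hsd3b2 (-0.53), and of 17 female-biased genes 5 rose and 1 fell, beside 11.2% and 18.1% of all genes. At day 7 of treatment 1 male-biased gene rose and 4 fell, and 6 female-biased genes rose and 0 fell, beside 5.64% and 11.4% of all genes.

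At day 91 Igf1 and Igfals were lower, the only genes of the 10 called, where 20.7% of all genes were called, 4.62% higher and 16.1% lower. Igf1 had 12.85, 12.81, 13.05, 12.93 and 13.02 on the treated arrays, against 13.07, 13.27, 12.99, 13.25 and 13.45 on the controls, with 1 control below the highest treated arrays. The fall was 0.27 (SE 0.07, adjusted p = 0.004), 1.21-fold, on 1452014_a_at. None of the other 3 sets was called, at -0.11, -0.033 and -0.17, where 16.2% of all probe sets were. Igfals had 10.17, 10.25, 10.21, 10.09 and 10.69 on the treated arrays, against 10.40, 11.06, 10.37, 10.88 and 11.00 on the controls. Treated replicate 5 lay above 2 of the controls, and the fall was 0.46 (SE 0.14, adjusted p = 0.0182), 1.38-fold. It missed the threshold without control replicate 2 (-0.38, adjusted p = 0.0695) or 5 (-0.40, 0.062), or without treated replicate 4 (-0.41, 0.0511).

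Cyp2d9 had 14.23, 14.18, 14.22, 14.18 and 14.21 on the treated arrays of day 91, against 14.10, 14.05, 13.98, 14.08 and 14.08 on the controls. The groups did not overlap, and the difference of 0.15 (SE 0.09) had an adjusted p of 0.218 with all arrays and 0.00909 with the day 91 arrays alone. Among its relatives Cyp2d12 (2.07, SE 0.18, adjusted p = 1.94e-10) and Cyp2d10 (0.23) rose at day 91. Hsd3b5 (-0.13), Elovl3 (-0.13), C6 (0.23) and Nox4 (0.31) were not called, with SEs of 0.61, 0.57, 0.31 and 0.54. Socs2 (-0.80, SE 0.71) and Cish (-0.99, SE 0.67) were not called either, with adjusted p-values of 0.444 and 0.304. Ghr differed by -0.047 (adjusted p = 0.606) on 1417962_s_at.

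The effect on Ghr differed between durations on 1417962_s_at, the probe set that stood for the gene. The other sets did not follow the same course. At day 7 treated and control means were 12.34 and 12.42 (1451501_a_at) and 8.19 and 8.20 (1451871_a_at). At day 91 they were 12.65 and 12.77, without overlap, and 8.58 and 8.76, with overlap. The tests below are of 1417962_s_at only. An F test of the time dependence, which called 35.1% of all genes, called Ghr (adjusted p = 0.0012) and none of the other 9, of which Hsd3b5 had the smallest adjusted p, 0.0695, with an unadjusted p of 0.0275. At an unadjusted p under 0.05 the test also took in Igfals (0.0339) and C6 (0.0313). The Ghr effect at day 1 lay below that at day 7 by 0.33 (effect at day 7 minus effect at day 1, SE 0.08, adjusted p = 0.00559, where 21.3% of genes were called), at day 28 by 0.30 (SE 0.09, adjusted p = 0.0405, 3.25%) and at day 91 by 0.44 (adjusted p = 0.000307, 30.4%). With the spike-in covariate the difference of day 7 was 0.22 (adjusted p = 0.374). That of day 28 missed the threshold without 13 of the 19 arrays it compares, 1 at a time, with values of 0.27 to 0.30 and adjusted p-values of 0.0504 to 0.116. These were day 1 control replicates 1, 3 and 4, day 1 treated replicates 1, 4 and 5, day 28 control replicates 1, 2, 3 and 5 and day 28 treated replicates 3, 4 and 5. It also missed it under 5 other settings (adjusted p = 0.0571 to 0.08). The F test called more than 1 gene when single arrays were left out, 5 genes without day 1 control replicate 2, 4 without day 7 treated replicate 1, 3 without day 7 treated replicate 2 or day 91 control replicate 3, and 2 without day 1 control replicate 4, day 28 control replicate 5, day 91 control replicate 1 or day 91 treated replicate 5. For C6 and Nox4 the day 91 effect minus the day 1 effect was 1.21 (SE 0.45, adjusted p = 0.0396) and 2.17 (SE 0.78, adjusted p = 0.034). Without day 1 control replicate 4 these were 0.80 (adjusted p = 0.145) and 1.58 (0.114). The C6 call ended without day 1 control replicate 1 or 4, day 1 treated replicate 1, 2 or 5, day 91 control replicate 3 or 4 or day 91 treated replicate 1, 3, 4 or 5, with values of 0.80 to 1.21. The Nox4 call ended without day 1 control replicate 1 or 4, day 1 treated replicate 1 or 4 or day 91 control replicate 4 or 5, with values of 1.58 to 2.14.

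The tested genes whose signal ran most like each member over the 39 arrays were listed by Pearson's r, which here reflects age, treatment and array together. For Hsd3b5 these were Slco1a1 (0.97) and Slc22a30 (0.90), for Elovl3 Cyp4a12a (0.95) and Cyp7b1 (0.95), for C6 Cyp7b1 (0.97) and Serpina12 (0.94) and for Nox4 Ugt3a1 (0.97) and Ugt2a3 (0.96). Slco1a1 averaged 10.93 ± 1.48 in day 7 treated livers, against 12.25 ± 0.21 in controls (SD, n = 5 each), and fell by 1.31 (SE 0.44, adjusted p = 0.0354), while at day 91 it averaged 12.27 ± 0.11 and 12.27 ± 0.18 in treated and control livers. For Ghr they were Cfhr2 (0.94) and Adam9 (0.92), and both fell at day 1 (by 0.47 each) and at day 28 (by 0.41 and 0.36) as Ghr did. Since these genes were chosen for running like the member on the same arrays, such shared changes follow in part from the choice. They are no separate support, and this holds for Slco1a1 too. Cyp2d9 ran with Mup10 (0.93) and Cyp2d13 (0.89), Igf1 with Fam25c (0.87) and Ccdc12 (0.85), and Igfals with Tmem150a (0.87) and Lcat (0.86). The highest values for Socs2, 0.81 with Gm2788 and 0.77 with Nrep, and for Cish, 0.77 with Rgs3 and 0.75 with Csrnp1, were lower.

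Over the whole study the sex-biased lists around the members moved in opposite directions with age. Of 13 male-biased genes 6 rose and 0 fell in controls between days 1 and 91, among them Cyp4a12a (3.11), Cyp7b1 (1.99), Susd4 (1.81) and Mup3 (0.57), with a median of 0.37 beside 0.039. In treated livers 12 of the 13 rose, where 21.1% of all genes did, with a median of 1.54. Of 17 female-biased genes 1 rose and 10 fell in controls, where 19.7% of all genes rose and 16.6% fell, among them Slc22a27 (-2.75), Abcd2 (-1.73), Cyp3a44 (-1.29) and Lifr (-0.93), and 1 rose and 11 fell in treated livers, beside 21.1% and 28.0% of all genes. At day 91 of phenobarbital 2 male-biased genes rose, Moxd1 (2.72) and Ugt2b1 (0.25), and 0 fell, and of the female-biased genes 6 rose and 2 fell, beside 4.62% of all genes higher and 16.1% lower. Among 14 transcription factors and receptors linked to sex bias, 3 rose and 2 fell in controls between days 1 and 91, near the 19.7% and 16.6% of all genes. Onecut2 (0.67) and Cebpa (0.40) were among those that rose, and Esr1 (-0.81) and Trim24 (-0.76) fell. In treated against control livers Onecut2 fell at day 1 (-0.61), Cebpa at day 7 (-0.37) and day 91 (-0.37) and Rxra at day 91 (-0.39). Of 8 tested NADPH oxidase genes other than Nox4, 2 rose and 3 fell in controls with age (19.7% and 16.6% of all genes), among them Noxo1 (0.48) and Cybb (-0.83), and at day 1 of treatment Poldip2 (0.18) rose and Cybb (-0.53) and Ncf1 (-0.41) fell.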

How the data were processed

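The deposited values are log2 signals of 39 arrays, normalized between arrays by the authors; their method is not given in the sources used here, and GCOS is named without a version, per the submitters' processing notes. Array means ran from 6.22 to 6.26. Arrays were grouped by the labels' treatment and duration. The genes and lists were chosen with earlier results of these data known. Of 45101 probe sets 34958 had 1 symbol. Each gene took its probe set with the highest mean and was tested when above the array median (50th percentile) on at least 4 arrays. A mean per group was fitted in limma 3.58.1 (R 4.3.3) with a trended prior, and p-values were 2-sided, adjusted by Benjamini-Hochberg, and tested on simulated data. Named were the 10 genes, up to 4 called genes per list and comparison (the 1 of smallest p where none was called) and the 2 genes most correlated with each. Motifs were sought in Python 3.11.15. Other settings are in the closing section. Probe sets with several symbols (932) were left out.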

Additional observations from a re-analysis of the deposited data

Results flagged for a closer look

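Of 80 groups of member values examined, 5 had an array far from the others. Chance alone would nominally mark about 1 in 20 groups, a rate that was not tested here. Igfals on day 91 treated replicate 5 was 10.69, and the other 4 arrays lay between 10.09 and 10.25. Socs2 on the same array was 10.09, with the others between 6.79 and 7.30. Cish on day 28 control replicate 5 was 10.69, with the others between 7.10 and 8.12. Hsd3b5 on day 91 control replicate 3 was 12.14, with the others between 12.78 and 13.04. Cyp2d9 on day 1 treated replicate 2 was 13.41, with the others between 13.59 and 13.64. Day 91 treated replicate 5 was thus the highest of its group by a wide gap for both Igfals and Socs2.

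The effect of phenobarbital differed from that of day 1 by a test of the difference itself for 3 genes. The Ghr effect on 1417962_s_at was higher than at day 1 by 0.33 at day 7, by 0.30 at day 28, a call that ended without any 1 of 13 of the 19 arrays, and by 0.44 at day 91. The C6 effect was higher at day 91 than at day 1 by 1.21 and the Nox4 effect by 2.17 (limma, adjusted p = 0.0396 and 0.034). All of these share the day 1 arrays.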

How the results depend on the processing

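Over 120 results (10 genes in 12 comparisons) and 13 other settings, 1437 of 1524 values kept their side of the threshold, 56 lost a call, 28 gained one and 3 reversed, and 38 changed sign without a call on either side. Ghr, Cyp2d9 and Nox4 have no value without probe sets that may match several transcripts, and counts under that setting are over the other 7 genes. The reversed values were Igfals at day 7 minus day 1 in controls with spike-in signal as a covariate (-0.039) and, without such probe sets, the Igf1 effect at day 7 (0.35, adjusted p = 0.0384 in limma) and at day 91 (0.42, adjusted p = 0.00989) minus that at day 1. The cause was not tested. At day 1 leaving out such probe sets gave 3 lower (2 of the 7 as reported), and with only the arrays compared Socs2 and Cish passed the threshold. At day 7 the 1 higher gene became 0 with quantile normalization, without a trended prior, with only the arrays compared and with the spike-in covariate, under which the 3 lower became 0. At day 28 only the arrays compared gave 1 higher and 2 lower, the mean of probe sets gave 2 lower, leaving out such probe sets gave 1 lower (0 of the 7 as reported), and the spike-in and 3' minus 5' covariates gave 0 lower. At day 91 only the arrays compared gave 1 higher, and these arrays, the mean of probe sets, leaving out such probe sets and the spike-in covariate gave 1 lower. For controls at day 7 minus day 1 the 3 higher became 0 with only those arrays or the spike-in covariate and 6 with array weights, and the 1 lower became 0 with all probe sets fitted, a robust prior and either covariate. For day 28 minus day 7 the 5 higher became 2 with the spike-in covariate, and the 2 lower became 0 with that covariate and 1 with the 3' minus 5' covariate. For day 91 minus day 28 array weights gave 1 higher and only those arrays 1 lower, in place of 0. For day 91 minus day 1 the 2 lower in controls became 1 with centring, all probe sets, only those arrays or array weights, and the 2 in treated livers 1 with the mean of probe sets or either covariate. The effect at day 7 minus that at day 1 gave 2 higher with only those arrays, 0 with the spike-in covariate and 1 without such probe sets (0 of the 7 as reported), in place of 1. The effect at day 28 minus that at day 1 gave 0 higher in place of 1 with centring, no filter, the mean of probe sets, all probe sets or no trended prior. For the effect at day 91 minus that at day 1, leaving out such probe sets gave 2 higher (1 of the 7 as reported), array weights gave 1 higher and 1 lower and the 3' minus 5' covariate 1 higher, in place of 3 and 0. The F test called 3 genes with array weights and 1 of the 7 without such probe sets (0 as reported). Leaving out each array in turn gave 1 to 5 lower at day 1, 0 to 1 higher and 2 to 6 lower at day 7, 0 to 1 lower at day 28, 1 to 2 lower at day 91, 0 to 5 higher and 0 to 1 lower for controls at day 7 minus day 1, 1 to 2 lower for controls and 1 to 3 for treated livers at day 91 minus day 1, 1 to 2 higher for the effect at day 7 and 0 to 1 for that at day 28 minus that at day 1, 1 to 5 higher and 0 to 1 lower for that at day 91, and 1 to 5 called by the F test. No paired analysis was possible because the labels give no replicate numbers that groups share. For Nox4 all 5 day 1 treated arrays, 3 day 7 treated arrays and 1 day 1 control array lay under the lower quartile of their array, so its folds there are bounds or uncertain.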
